A study of Homo sapiens with 15 samples.

Results

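Collagen and laminin genes were examined in U87MG, an established human glioblastoma cell line, 24 h after lentiviral transduction. They were taken as every entry of the expression table whose symbol names a collagen chain or a laminin alpha, beta or gamma chain, with a mean of 5 or more raw counts over the 15 libraries. This gave 31 genes of 56 such symbols, in a table of 25737 entries. Of these, 7 of 11 fibrillar collagen genes, 4 of 8 basement membrane collagen genes, 11 of 25 other collagen genes and 9 of 12 laminin genes reached the limit. The samples were 5 groups of 3 libraries. The GFP group received the control lentivirus, and the other groups received a lentivirus for ID1, ID2, ID3 or ID4, the ID family of proteins. All cells were grown in DMEM with 10% serum and antibiotics and belong to the same line, so each group is a treatment of a cultured tumor line without the stroma and vessels of a tumor. The labels do not say whether the 3 libraries of a group came from separate cultures, and p-values then measure only the spread between these libraries.

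Collagens are secreted or membrane proteins built from chains that wind into a helix with partner chains. The fibrillar types I, III, V and XI form the fibers of connective tissue, and type IV collagen forms the sheet of the basement membrane. Laminins are heterotrimers of an alpha, a beta and a gamma chain that self-assemble on the cell surface and bind integrins and dystroglycan. Glioblastoma cells are known to deposit matrix of their own and to migrate along the basement membrane of vessels. ID proteins lack a DNA-binding region and hold basic helix-loop-helix factors away from their sites, the E-boxes, which read CANNTG.

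Total counts per library were 11089044 to 15148979, and 3 counts, the floor below which a level cannot be told from 0, corresponded to 0.198 to 0.271 CPM (counts scaled to a common library total). Counts of ID1 were 346 CPM in GFP and 247 CPM in the libraries labelled ID1, and counts of ID2 were 86.1 CPM in GFP and 45.5 CPM in the libraries labelled ID2. ID3 rose from 222 to 310 CPM in the libraries labelled ID3, and ID4 from 0.0791 to 223 CPM in those labelled ID4. These changes were not all particular to the label. ID3 was also at 291 CPM in the ID2 group, and at 182 and 207 CPM in ID1 and ID4. Counts of ID2 were 34.0, 46.2 and 36.0 CPM in ID1, ID3 and ID4. Counts of ID1 were 320, 325 and 281 CPM in ID2, ID3 and ID4. The groups are therefore named by their labels. In the ID1 and ID2 groups no rise of the labelled gene was seen in these counts. Whether the counts include reads of the introduced gene was not tested. Directions in these groups are tied to the label alone. ID2 replicate 3 stood apart, with an SD of 0.240 for its log2 difference from its group mates against 0.0951 to 0.155 in the other 14 libraries. Results of the ID2 group are therefore also given without it where they moved most, and the spread shared by all groups depends on it too. The glial markers GFAP, OLIG1, SOX2, SOX10 and S100B did not reach the limit of 5 mean counts, whereas the vimentin gene VIM stood at 3685 CPM in GFP. None of 5 endothelial markers (PECAM1, CDH5, VWF, TEK and CLDN5) reached the limit, and their summed level was 0.147 to 0.933 CPM over the libraries.

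The 31 genes together took 0.538% ± 0.0294 of all counts in GFP (SD, n = 3). The share was 0.485% ± 0.0237 in ID1, 0.584% ± 0.0683 in ID2, 0.571% ± 0.0151 in ID3 and 0.517% ± 0.00807 in ID4. QuantSeq reads the 3′ end of each transcript, so CPM was not divided by transcript length and levels of different genes are set side by side only as shares of reads. COL6A3, a chain of the beaded filaments of type VI collagen, held 61.8% ± 2.25 of the reads of the 31 genes in GFP, and 50.3%, 45.6%, 45.5% and 48.9% in ID1, ID2, ID3 and ID4. COL1A2, a chain of type I collagen, held 14.6% ± 0.344 in GFP, and 23.2%, 28%, 25.8% and 23.4% in the same order. COL1A1, its partner, kept 7.41% to 9.10% of the reads in all 5 group means.

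**Figure D1:**
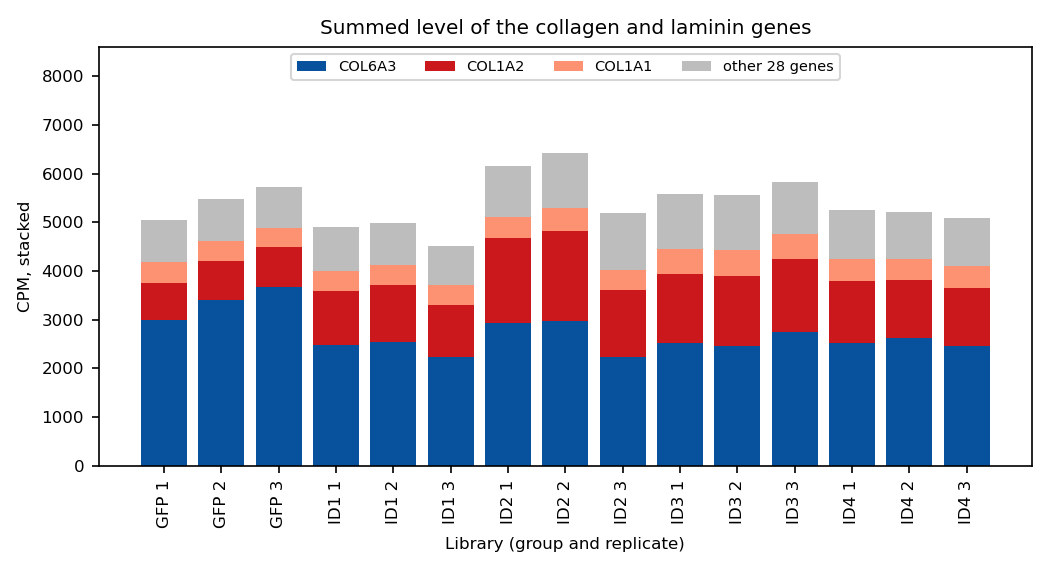
Stacked bars give the CPM of COL6A3, COL1A2, COL1A1 and the other 28 genes in each of the 15 libraries (group and replicate on the x axis, summed CPM from 0 on the y axis). The COL6A3 part is tallest in the 3 GFP libraries (2999 to 3662 CPM), and the COL1A2 part is shortest there (757 to 822 CPM).

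At the low end, LAMA3 passed with a mean of 5.27 counts (range 1 to 9), COL10A1 with 9.27 and COL4A6 with 10.1. Just below the limit were COL9A2 with a mean of 4.13 counts, COL11A2 with 3.87 and COL8A2 with 3.8. A total of 25 symbols fell below it. COL4A1, COL5A3, COL6A5, COL22A1 and LAMC3 were listed at 0 in all 15 libraries.

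Compared with GFP, 19 of the 31 genes changed in the mean of the 4 ID groups, 15 higher and 4 lower, at an adjusted p under 0.05 in edgeR's quasi-likelihood test. Over all 13665 genes tested, 30.8% were called in this comparison, 15.9% higher and 14.9% lower. The median log2 fold change was 0.25 over the 31 genes and -0.0046 over all genes. Among fibrillar collagens 4 of 7 rose and 1 fell, among the other collagens 5 of 11 rose and 3 fell, and among laminins 6 of 9 rose and none fell. None of the 4 basement membrane collagens passed (at an unadjusted p under 0.05 the count was 1, and DESeq2 called 0 and limma 0). Leaving out GFP replicate 3 lowered the count from 19 to 15, since COL1A1, COL17A1, LAMA1 and LAMA2 no longer passed. The share of all genes called without that library is not reported here.

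Taken group by group, ID1 differed from GFP in 13 genes (9 higher, 4 lower) where 21.6% of all genes were called (11.8% higher, 9.81% lower). ID2 differed in 18 (13 higher, 5 lower), and in 17 without ID2 replicate 3, beside 33.8% of all genes (17.5% higher, 16.3% lower). ID3 differed in 19 (16 higher, 3 lower) beside 27.4% (14.5% higher, 13% lower), and ID4 in 13 (11 higher, 2 lower) beside 20.6% (11.4% higher, 9.18% lower). The median log2 fold change of the 31 genes was 0.07, 0.16, 0.35 and 0.14 in ID1, ID2, ID3 and ID4. Without ID2 replicate 3 the fit called 17 genes in ID4, with COL12A1, COL6A2, LAMA2 and LAMB1 added, and the same 19 genes in the mean of the ID groups. The share of all genes called without this library is not reported here, so the added calls are not read as a result. Other ID2 values without that library were 1.17 for COL5A2, 2.81 for COL3A1, 0.35 for COL6A1, 0.54 for LAMC1, 0.62 for LAMB2 and 1.07 for LAMB3, all of which passed. These 4 comparisons share the GFP libraries, so they are given side by side and their overlap is not read as a result. The spread of the 3 libraries separated every ID library from every GFP library on the same side in 10 of the 31 genes, where 14.5% of all genes did so.

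**Figure D2:**
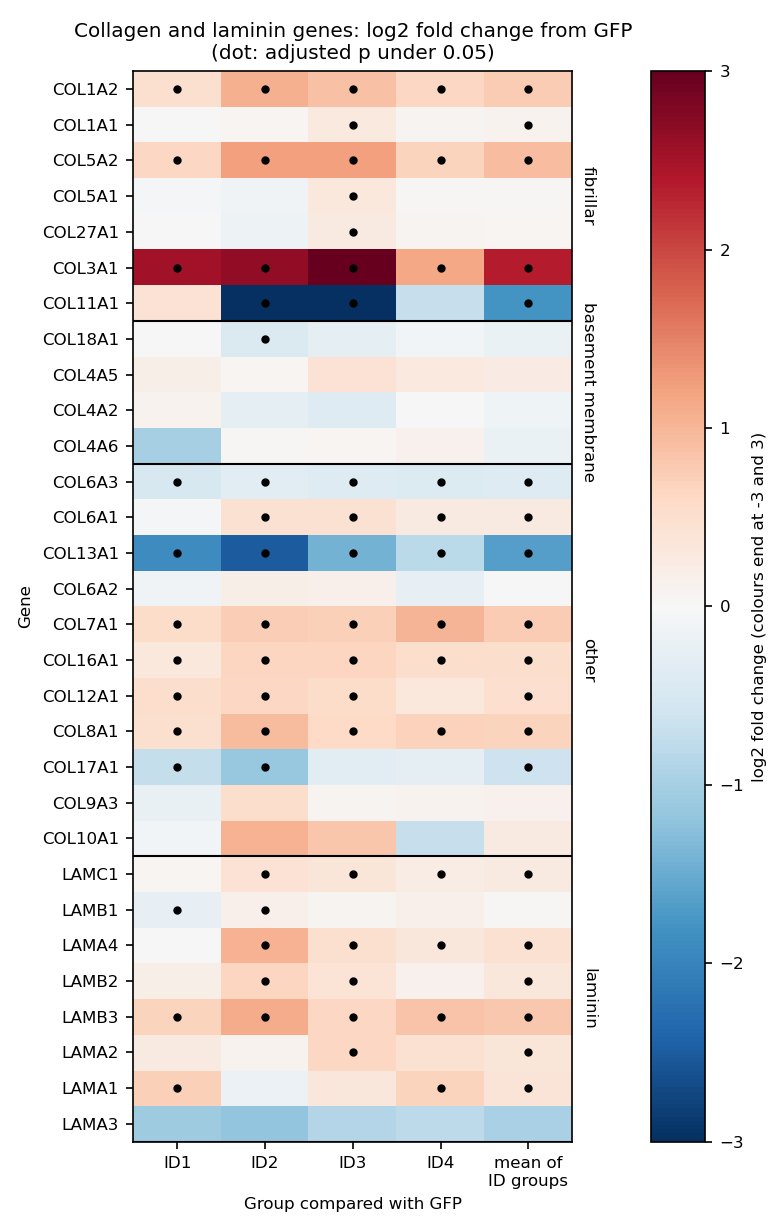
Colors give the log2 fold change from GFP of 30 of the 31 genes (rows, by class) in ID1, ID2, ID3, ID4 and the mean of the 4 ID groups (columns), and a dot marks an adjusted p under 0.05. COL13A1 and COL6A3 are blue and COL1A2, COL5A2 and COL3A1 red in all columns, and COL11A1 is blue with a dot only in ID2, ID3 and the mean.

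Type I collagen is the main fiber protein of connective tissue. COL1A2 (chr7:94024207-94060539) stood at 757, 797 and 822 CPM in GFP and at 1101, 1166 and 1067 in ID1, 1743, 1865 and 1388 in ID2, 1423, 1438 and 1514 in ID3, and 1256, 1191 and 1195 in ID4. All 12 ID libraries lay above all GFP libraries. The log2 fold change was 0.49 ± 0.07 in ID1, 1.07 ± 0.07 in ID2, 0.88 ± 0.07 in ID3 and 0.62 ± 0.07 in ID4 (± SE, here and for all log2 fold changes), and 0.76 ± 0.06 in their mean (adjusted p = 9.8e-10), or 1.70-fold. Without ID2 replicate 3, which was the lowest of its group, the ID2 value was 1.19. COL1A1 (chr17:48261462-48278993) held 430, 420 and 402 CPM in GFP and 508, 523 and 511 in ID3, where it rose by 0.30 ± 0.05 (adjusted p = 6.3e-05). Its log2 fold changes were -0.00 in ID1, 0.07 in ID2 and 0.08 in ID4, and none of these passed. The mean over the ID groups was 0.11 ± 0.04 (adjusted p = 0.030), a call that ended without GFP replicate 2 or 3 (adjusted p = 0.081 and 0.19) and with library factors set within each chromosome (adjusted p = 0.058).

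Type V collagen sits inside type I fibers and sets their diameter. COL5A2 (chr2:189896624-190090038) rose from 86.7, 81.0 and 76.7 CPM in GFP to 133, 122 and 123 in ID1, 168, 199 and 210 in ID2, 193, 207 and 170 in ID3, and 134, 123 and 130 in ID4. The ID libraries lay above the GFP libraries without overlap, and ID2 and ID3 lay above ID1 and ID4. The log2 fold changes were 0.63, 1.24, 1.22 and 0.66 (SE 0.08 each), and 0.94 ± 0.07 in the mean (adjusted p = 2.0e-10). COL5A1 (chr9:137533649-137736689), the partner chain, had 112, 115 and 107 CPM in GFP and 137, 140 and 139 in ID3, where it rose by 0.31 ± 0.06 (adjusted p = 0.00025). In ID1, ID2 and ID4 its log2 fold changes were -0.06, -0.11 and 0.04, and did not pass.

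COL3A1 (chr2:189839099-189877472), the chain of type III collagen found with type I in distensible tissue, had a low level and the largest log2 rise of the 31 genes in each ID group. GFP libraries held 0.70, 0.92 and 0.594 CPM (10, 11 and 7 counts), and ID3 libraries 6.93, 6.60 and 5.12 CPM (102, 93 and 69 counts). ID1 libraries held 3.73, 4.6 and 4.48 CPM, ID2 libraries 5.66, 4.75 and 3.68, and ID4 libraries 1.70, 1.53 and 1.74. Every ID library was above every GFP library, with ID4 nearest to GFP. The log2 fold changes were 2.52 ± 0.26, 2.66 ± 0.26, 3.06 ± 0.25 and 1.16 ± 0.31 in ID1 to ID4, and 2.35 ± 0.23 in the mean (adjusted p = 5.3e-08), or 5.10-fold. COL3A1 and COL5A2 lie on opposite strands of chromosome 2, with 19151 bases between their ends. The median log2 fold change of the 20 tested genes nearest to them was 0.03 and 0.08 in the mean of the ID groups.

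COL11A1 (chr1:103342023-103574428), a minor fibrillar chain best known from cartilage, went the other way in 2 of the 4 groups. It had 27, 17 and 18 counts in GFP (1.89, 1.42 and 1.53 CPM) and 34, 24 and 35 in ID1, but 4, 2 and 1 in ID2 and 4, 1 and 0 in ID3, and 11, 13 and 13 in ID4. ID2 and ID3 libraries were at or near the floor of 3 counts, whereas ID1 overlapped with GFP. The fitted log2 fold change was -3.22 ± 0.49 in ID2 (adjusted p = 2.0e-05; -2.86 without ID2 replicate 3) and -3.68 ± 0.52 in ID3 (adjusted p = 1.3e-05). These values rest on few counts. The values for ID1 (0.43 ± 0.31) and ID4 (-0.70 ± 0.35) did not pass. COL27A1, the remaining fibrillar gene, rose in ID3 (0.28 ± 0.09, adjusted p = 0.024), and this call ended without GFP replicate 2 or 3 or ID3 replicate 1 (adjusted p = 0.055, 0.072 and 0.16). All 7 fibrillar genes passed in ID3, 6 of them higher, where 27.4% of all genes were called and 14.5% were higher.

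**Figure D3:**
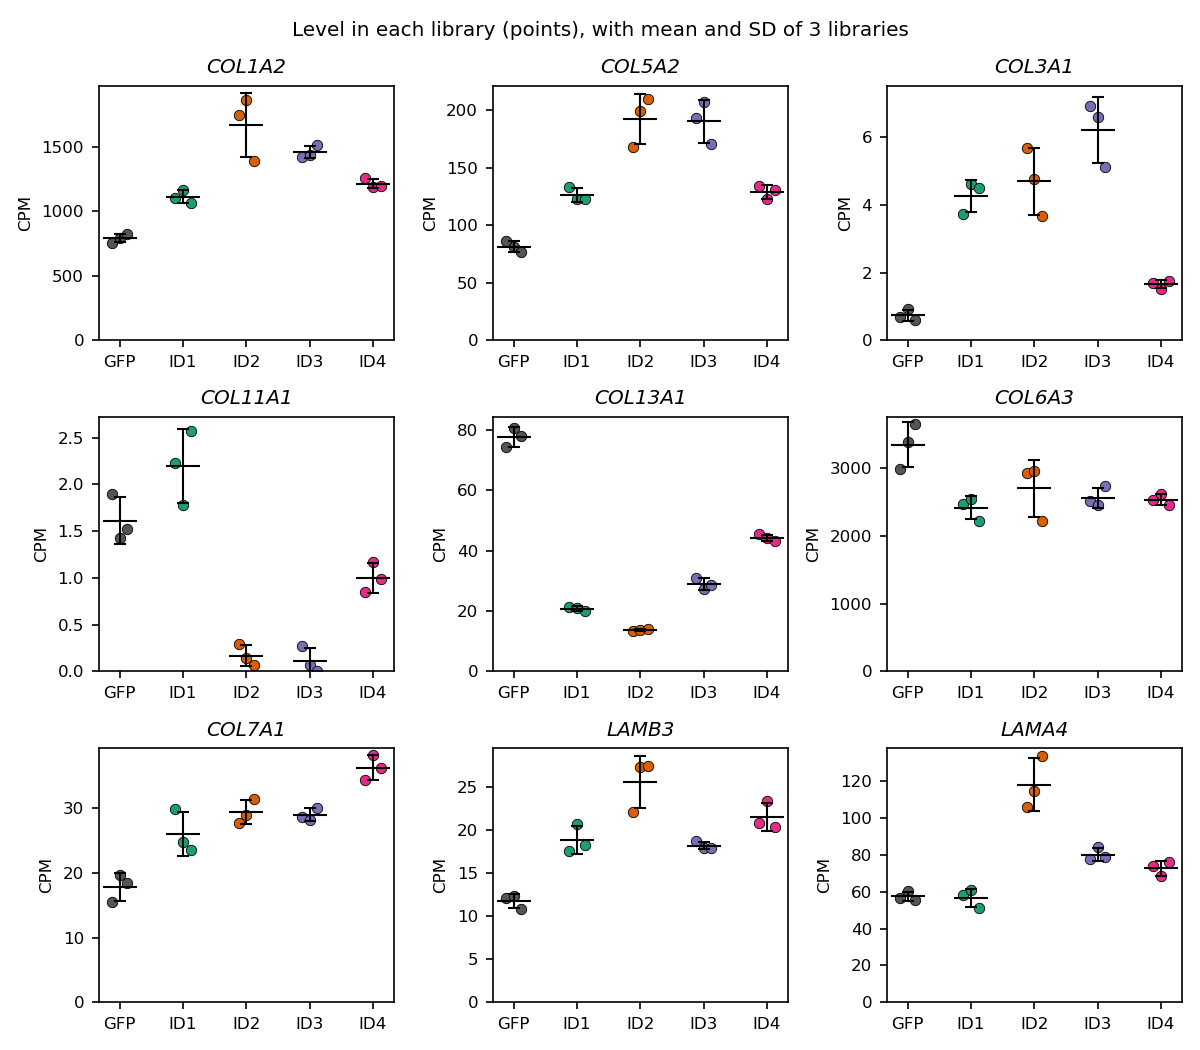
Points give the CPM of 9 genes in each library (linear axes from 0), and lines the mean and SD of the 3 libraries of a group. COL1A2, COL5A2, COL3A1, COL7A1 and LAMB3 are higher and COL13A1 and COL6A3 lower than GFP in every ID library, while LAMA4 in ID1 (51.2 to 60.7 CPM) overlaps with GFP (55.5 to 60.3 CPM).

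COL13A1 (chr10:71561636-71724031) encodes a transmembrane collagen of cell adhesion sites and gave the smallest adjusted p of the 31 genes in the mean of the ID groups. Its level was 74.2, 80.7 and 77.9 CPM in GFP, 21.3, 21.2 and 19.99 in ID1, 13.5, 13.7 and 13.9 in ID2, 31.1, 27.2 and 28.6 in ID3, and 45.4, 44 and 43.2 in ID4. No 2 groups overlapped. The log2 fold changes were -1.90 ± 0.07, -2.50 ± 0.07, -1.42 ± 0.07 and -0.81 ± 0.07, and -1.66 ± 0.05 in the mean (adjusted p = 4.1e-17), or 3.15-fold lower. All 6 differences between 2 ID groups passed as well, from 0.48 between ID1 and ID3 (ID1 lower) to 1.69 between ID2 and ID4 (ID2 lower). The ID2 value was -2.51 without ID2 replicate 3. Genes of chromosome 10 had a median log2 fold change of -0.13, and the 20 tested genes nearest to COL13A1 one of -0.17, in the mean of the ID groups. COL17A1 (chr10:105791044-105845638), a transmembrane collagen of hemidesmosomes, held 7.0, 5.69 and 7.72 CPM in GFP and 4.05, 3.00 and 2.19 in ID2. It fell in ID2 (-1.15 ± 0.22, adjusted p = 0.00026; -0.95 without ID2 replicate 3) and in ID1 (-0.72 ± 0.21, adjusted p = 0.015), with its 20 nearest tested genes at a median of -0.24 in the mean of the ID groups. The ID1 call ended when library factors were set within each chromosome (-0.57, adjusted p = 0.057) and without GFP replicate 3, ID1 replicate 1 or ID1 replicate 3 (adjusted p = 0.071, 0.061 and 0.057). The mean over the ID groups was -0.61 ± 0.16 (adjusted p = 0.0049), and it missed the threshold without GFP replicate 3 (adjusted p = 0.052).

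The stretch before the start site is shown for COL13A1, COL11A1, COL7A1 and LAMA4, which were chosen after their values were seen, as genes with large changes and a promoter entry. RefSeq entries (assembly GRCh38.p14) were at hand for 22 of the 31 genes, with 29 start sites, and COL1A1, COL1A2, COL3A1, COL5A2, COL6A1, COL8A1, COL9A3 and LAMA1 were among those without one. Each window holds the 250 bases before a RefSeq start site, and its GRCh37 position is that of the only exact match on that chromosome. Capitals mark E-boxes (CANNTG, whose letters read as the same pattern on both strands). The GENCODE span of COL13A1 reaches into its window, and those of COL11A1 and LAMA4 cover theirs, so that their stretches lie inside the annotated genes.
COL13A1 (chr10:71561412-71561661, plus strand): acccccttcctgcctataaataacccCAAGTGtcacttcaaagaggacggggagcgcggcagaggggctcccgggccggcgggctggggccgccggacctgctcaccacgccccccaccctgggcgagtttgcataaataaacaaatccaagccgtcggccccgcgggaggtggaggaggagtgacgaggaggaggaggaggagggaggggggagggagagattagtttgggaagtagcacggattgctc
COL11A1 (chr1:103574079-103574328, minus strand): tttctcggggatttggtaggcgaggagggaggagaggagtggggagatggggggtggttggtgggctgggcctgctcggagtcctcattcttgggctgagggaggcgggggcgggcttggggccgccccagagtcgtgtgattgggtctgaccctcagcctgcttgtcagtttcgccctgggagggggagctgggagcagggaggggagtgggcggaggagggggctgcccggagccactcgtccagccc
COL7A1 (chr3:48632763-48633012, minus strand): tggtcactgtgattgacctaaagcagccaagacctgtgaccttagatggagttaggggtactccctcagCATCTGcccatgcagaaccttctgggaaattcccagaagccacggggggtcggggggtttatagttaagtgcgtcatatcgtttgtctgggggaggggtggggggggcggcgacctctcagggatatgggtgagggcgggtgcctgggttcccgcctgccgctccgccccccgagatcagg
LAMA4 (chr6:112575770-112576019, minus strand): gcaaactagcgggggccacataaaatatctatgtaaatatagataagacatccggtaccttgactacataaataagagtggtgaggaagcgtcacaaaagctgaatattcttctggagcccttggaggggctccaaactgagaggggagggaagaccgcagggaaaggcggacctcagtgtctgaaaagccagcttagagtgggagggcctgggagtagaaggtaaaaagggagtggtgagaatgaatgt
The COL13A1 window holds an E-box, CAAGTG, that begins 224 bases before the start, and the COL7A1 window holds CATCTG 181 bases before it. The windows of COL11A1 and LAMA4 hold no CANNTG. Of those not shown, the 3 windows of LAMB3 hold 1 to 3 CANNTG each, and the window of COL17A1 holds 1. Of all 35116 RefSeq windows of this length, 61.8% hold CANNTG, and 14 of the 29 windows of the collagen and laminin genes do (48.3%). CAGCTG is in 2 of the 29 windows (6.90% against 14% of all windows), CACCTG or its reverse CAGGTG in 3 (10.3% against 17.5%) and CACGTG in none (6.34% of all windows).

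Type VI collagen forms beaded filaments around cells from the chains of COL6A1, COL6A2 and COL6A3. COL6A3 (chr2:238232646-238322971) fell from 2999, 3398 and 3662 CPM in GFP to 2480, 2545 and 2225 in ID1, 2935, 2964 and 2220 in ID2, 2514, 2458 and 2738 in ID3, and 2527, 2620 and 2457 in ID4. Each ID library was below the lowest GFP library, with ID2 replicates 1 and 2 nearest to it. The log2 fold changes were -0.47, -0.31, -0.38 and -0.40 (SE 0.08 each), and the ID groups did not pass the test for a difference among themselves (adjusted p = 0.44). Without ID2 replicate 3 the ID2 value was -0.18 (adjusted p = 0.024), and the test among the ID groups passed (adjusted p = 0.0050). COL6A1 (chr21:47401684-47424964) held 138, 142 and 124 CPM in GFP, 169, 176 and 213 in ID2 and 195, 185 and 172 in ID3. It rose by 0.46 ± 0.08 in ID2, 0.45 ± 0.08 in ID3 and 0.26 ± 0.08 in ID4, the last with an adjusted p of 0.018 that became 0.10 without GFP replicate 3 and 0.071 without ID4 replicate 1. In ID1 its log2 fold change was -0.05 ± 0.08. COL6A2 (chr21:47518026-47552762), 93061 bases from COL6A1, passed in none of the comparisons with GFP. Its log2 fold changes were -0.11, 0.17, 0.16 and -0.24 in ID1 to ID4.

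The remaining collagens outside fibers include anchoring, fiber-associated and network-forming types. COL7A1 (chr3:48601506-48632762), the anchoring fibril collagen, rose from 15.4, 19.6 and 18.4 CPM to 34.3, 38.1 and 36.2 in ID4, the highest of the groups, with ID1, ID2 and ID3 between 23.4 and 31.4 CPM. Its log2 fold change was 1.03 ± 0.10 in ID4 and 0.75 ± 0.08 in the mean (adjusted p = 2.7e-07). COL8A1 (short-chain network collagen) rose in all 4 groups, by 0.47 to 0.96. COL16A1, a fiber-associated collagen, rose by 0.32 to 0.65, of which the ID1 call ended without GFP replicate 2 (adjusted p = 0.074). COL12A1, another one of this kind, rose by 0.53, 0.63 and 0.54 in ID1, ID2 and ID3, and its value of 0.31 in ID4 did not pass (adjusted p = 0.056). The cartilage collagens COL9A3 (2.42 to 5.30 CPM) and COL10A1 (0.152 to 1.84 CPM) passed in no comparison with GFP.

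Among the basement membrane collagens, COL4A2 (chr13:110958159-111165556) held 2.19 to 4.32 CPM, COL4A5 (chrX:107683068-107940775) 2.45 to 4.14 CPM and COL4A6 (chrX:107398837-107682727) 0.262 to 1.16 CPM over the 15 libraries. The ID3 libraries lay below the GFP libraries for COL4A2, but this difference of -0.39 ± 0.21 did not pass (adjusted p = 0.18). Their log2 fold changes in the mean of the ID groups were -0.13 ± 0.16, 0.25 ± 0.18 and -0.20 ± 0.33 (adjusted p = 0.58, 0.32 and 0.70). Differences smaller than these errors were not detectable at this depth. COL18A1, the precursor of endostatin, fell in ID2 (-0.44 ± 0.13, adjusted p = 0.0082; -0.37 and 0.041 without ID2 replicate 3). COL4A1, the partner of COL4A2, was listed at 0 throughout, and whether the annotation or a filter set this value is not given in the sources used here. The pair starts from opposite strands with 126 bases between their RefSeq start sites, and this shared stretch, which has no CANNTG, is shown for that reason.
Between COL4A1 and COL4A2 (chr13:110959505-110959630, plus strand): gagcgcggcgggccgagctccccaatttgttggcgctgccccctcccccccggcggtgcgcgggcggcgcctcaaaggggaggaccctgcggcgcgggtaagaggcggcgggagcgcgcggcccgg

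Of the 9 laminin genes, 6 rose in the mean of the ID groups, where 15.9% of all genes were called higher. LAMA4 (chr6:112429134-112576141), an alpha chain of mesenchymal and vessel laminins, held 56.8, 60.3 and 55.5 CPM in GFP, 58.3, 60.7 and 51.2 in ID1, 106, 115 and 134 in ID2, 77.4, 84.0 and 78.8 in ID3, and 73.7, 68.2 and 76.1 in ID4. ID1 overlapped with GFP, and ID2 stood above all other groups. The log2 fold changes were -0.02 ± 0.08 in ID1, 1.04 ± 0.08 in ID2, 0.48 ± 0.08 in ID3 and 0.34 ± 0.08 in ID4 (adjusted p = 8.6e-09 for a difference among the ID groups), and the ID2 value was 0.94 without ID2 replicate 3. LAMC1 (chr1:182992555-183114727), the gamma chain of most laminins, rose by 0.42 ± 0.08 in ID2 and 0.37 ± 0.08 in ID3. In ID4 LAMC1 rose by 0.23 ± 0.08 (adjusted p = 0.044), a call that ended without GFP replicate 1 or 2 or any ID4 replicate (adjusted p = 0.070 to 0.13). LAMB1 (chr7:107564244-107643658), a beta chain, held 93.3, 95.4 and 95.5 CPM in GFP and 80.7, 84.5 and 75.5 in ID1, where it fell by 0.24 ± 0.06 (adjusted p = 0.0066, but 0.055 without ID1 replicate 3). In ID2 LAMB1 gave 0.16 ± 0.06 (adjusted p = 0.048), which did not pass in 10 of the alternatives, among them leaving out ID2 replicate 3 (adjusted p = 0.088). With library factors set within each chromosome this value was 0.07 (adjusted p = 0.42). LAMB2, the beta chain of synapse and kidney laminins, rose by 0.64 ± 0.08 in ID2 and 0.42 ± 0.08 in ID3, and by 0.34 ± 0.07 in the mean.

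LAMB3 (chr1:209788215-209825770), the beta chain of the epithelial laminin that anchors hemidesmosomes, rose from 12.1, 12.4 and 10.9 CPM to 17.6, 20.6 and 18.3 in ID1, 22.1, 27.3 and 27.4 in ID2, 18.7, 17.9 and 17.9 in ID3, and 20.8, 23.3 and 20.4 in ID4. Every ID library was above every GFP library. The log2 fold changes were 0.67, 1.12, 0.62 and 0.86 (SE 0.10 to 0.11), and 0.82 ± 0.09 in the mean (adjusted p = 1.7e-07). LAMA3 (chr18:21269417-21536186), the alpha chain of the same laminin, held 0.0758 to 0.753 CPM, and its log2 fold change of -0.98 ± 0.44 in the mean did not pass (adjusted p = 0.097). LAMA3 was close to the floor of 3 counts in most libraries. LAMA1 (chr18:6941741-7117796), an embryonic alpha chain, rose in ID1 (0.72 ± 0.17, adjusted p = 0.0042) and in ID4 (0.66 ± 0.18, adjusted p = 0.010), and the ID4 call ended without GFP replicate 1 or ID4 replicate 3 (adjusted p = 0.057 and 0.059). LAMA2, the muscle alpha chain, rose in ID3 (0.63 ± 0.16, adjusted p = 0.0053). The values of LAMA1 and LAMA2 in the mean of the ID groups, 0.39 ± 0.15 and 0.36 ± 0.13, had adjusted p-values of 0.047 and 0.044, which leaving out any GFP library raised to between 0.073 and 0.23. DESeq2 gave 0.076 and 0.070 for them, and library factors within each chromosome 0.057 for LAMA2.

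The 4 ID groups differed among themselves in 21 of the 31 genes, where 27.9% of all tested genes did. These were all 7 fibrillar genes, 1 basement membrane gene, 7 of 11 other collagens and 6 of 9 laminins. Between pairs of groups, 16 genes differed between ID1 and ID2 (17.9% of all genes), 11 between ID1 and ID3 (8.78%) and 6 between ID1 and ID4 (4.57%). Counts were 9 between ID2 and ID3 (14.2%), 12 between ID2 and ID4 (17.7%) and 10 between ID3 and ID4 (10.8%). ID1 was the lower group in 12 of the 16 genes that separated it from ID2 (9.35% of all tested genes). It was also lower in 10 of the 11 genes that separated it from ID3 (4.68% of all tested genes). These percentages are over all tested genes, called or not. Of all genes called, ID1 was lower than ID2 in 1277 of 2445 and lower than ID3 in 640 of 1200. COL1A2 did not pass between ID2 and ID3 (0.19 ± 0.07, adjusted p = 0.077; 0.31 and 6.0e-05 without ID2 replicate 3) or between ID1 and ID4 (-0.13 ± 0.07, adjusted p = 0.40), and COL5A2 did not pass between these pairs either (0.02 ± 0.08 and -0.03 ± 0.08). LAMA4 passed in all pairs other than ID3 against ID4. Without ID2 replicate 3 the counts that moved most were 15 between ID2 and ID4 and 14 between ID1 and ID3. Again 21 genes differed among the ID groups, with COL6A3 in place of COL18A1. The shares of all genes called without this library are not reported here, so these moves are not read as a result.

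The balance between genes whose chains are assembled together was followed as ratios of their counts. The ratio of COL1A2 to COL1A1 counts was 1.90 ± 0.143 in GFP (SD, n = 3), 2.66 ± 0.109 in ID1, 3.81 ± 0.422 in ID2, 2.84 ± 0.111 in ID3 and 2.74 ± 0.0329 in ID4. The ratio of COL5A2 to COL5A1 was 0.731 ± 0.0393 in GFP and 1.18 ± 0.0437, 1.86 ± 0.156, 1.37 ± 0.126 and 1.12 ± 0.0398 in ID1 to ID4. For both ratios the GFP libraries lay below all 12 ID libraries. The ratio of COL6A1 to COL6A3 was 0.0407 ± 0.00622 in GFP and rose to 0.0541 ± 0.00285, 0.0709 ± 0.0215, 0.0719 ± 0.00791 and 0.0639 ± 0.00264, again without overlap with GFP. The ratio of LAMA4 to LAMC1 was 0.596 ± 0.0465 in GFP and 0.933 ± 0.256 in ID2, where ID2 replicate 3 gave 1.23 and the other 2 libraries 0.792 and 0.779. An exact two-sided permutation test of each ratio against GFP gave p = 0.1 for the first 3 pairs in every group, the smallest value that 3 against 3 libraries allow, and an adjusted p of 0.123 over 16 tests, so that this test cannot reach 0.05 here. These are ratios of reads at the 3′ ends and not of chains.

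**Figure D4:**
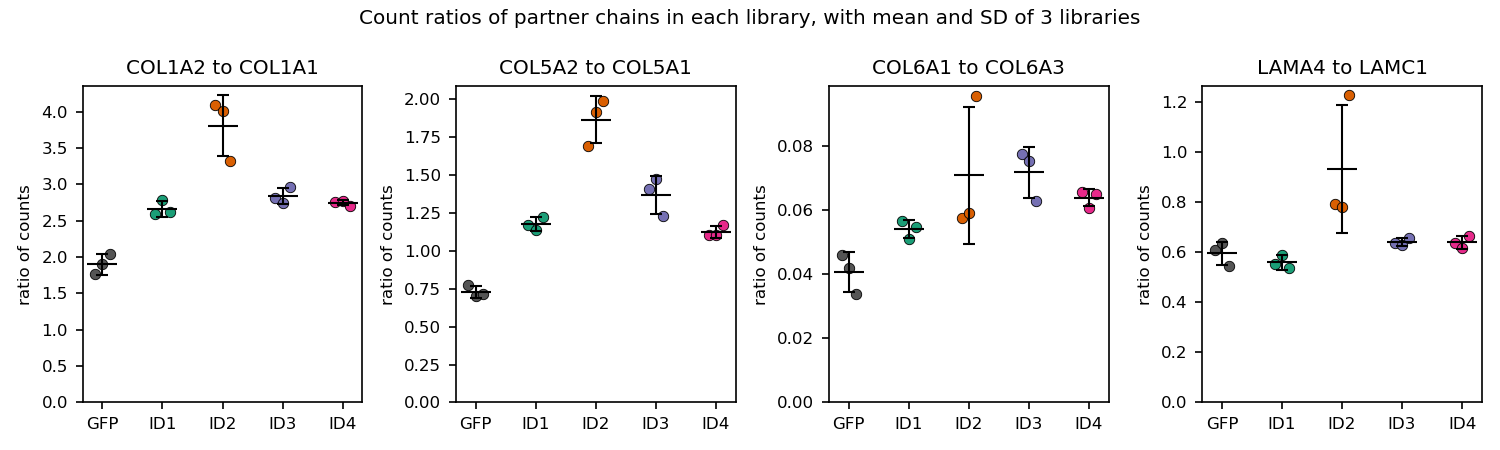
Points give the ratio of counts of 2 partner genes in each library, with the mean and SD of 3 libraries, on linear axes from 0. In the panels of COL1A2 to COL1A1, COL5A2 to COL5A1 and COL6A1 to COL6A3 the GFP libraries are the lowest, and ID2 replicate 3 is the highest library for COL6A1 to COL6A3 (0.0957) and LAMA4 to LAMC1 (1.23).

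Collagen chains need hydroxylases, chaperones, transport and cross-linking enzymes to become fibers, and the genes of these steps were followed in the mean of the ID groups against GFP. Of 15 tested hydroxylases, glycosyltransferases and chaperones (16 listed), 9 rose and 2 fell, where 15.9% of all genes were called higher and 14.9% lower. P4HA2, a prolyl hydroxylase chain, rose by 0.68 ± 0.05, P3H3 by 0.65 ± 0.07 and PPIB, a prolyl isomerase, by 0.61 ± 0.17. P4HA1 fell by 0.16 ± 0.04 and the lysyl hydroxylase PLOD1 by 0.18 ± 0.05. Their falls passed in ID1 (-0.36 and -0.39) and ID4 (-0.25 and -0.23). In ID2 they gave -0.05 and -0.03 and in ID3 0.01 and -0.05, and none of these passed. Library factors set within each chromosome ended the calls of PPIB, P4HA1 and PLOD1 in the mean (adjusted p = 0.22, 0.57 and 0.064). So did leaving out GFP replicate 2 for PPIB and PLOD1 (adjusted p = 0.10 and 0.16). The list's median was 0.23, beside -0.0046 for all genes, and 8 of its genes passed with library factors set within each chromosome. Of 9 tested genes of export and propeptide cleavage (12 listed), 2 rose and 3 fell, beside the same 15.9% and 14.9% of all genes. BMP1, the protease that removes the C-terminal propeptide, rose by 0.69 ± 0.08 and its enhancer PCOLCE2 by 0.65 ± 0.08, while PCOLCE, the other enhancer, fell by 0.85 ± 0.06.

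Cross-linking enzymes rose in 4 of 5 tested genes (7 listed) and fell in none, beside 15.9% and 14.9% of all genes. The transglutaminase TGM2 rose by 1.87 ± 0.07, and the lysyl oxidases LOXL1, LOX and LOXL3 by 0.99 ± 0.05, 0.73 ± 0.09 and 0.32 ± 0.07. LOXL2 gave -0.03 ± 0.05, and LOXL4 and PXDN were listed at 0 in all libraries. Of 9 tested matrix partners (12 listed), 7 rose and 1 fell, again beside 15.9% and 14.9% of all genes. The perlecan gene HSPG2 rose by 1.59 ± 0.14 and the fibrillin gene FBN1 by 0.89 ± 0.07. The fibronectin gene FN1 rose by 0.87 ± 0.05 and the tenascin gene TNC by 0.76 ± 0.13. NID2, which links laminin to type IV collagen, fell by 0.26 ± 0.09 (adjusted p = 0.042). It passed in ID1 (-0.67) and ID4 (-0.36), but not in ID2 (0.11) or ID3 (-0.11). The NID2 call in the mean ended with DESeq2, limma, no filter, a replicate block and library factors within chromosomes (adjusted p = 0.057 to 0.073). It also ended without GFP replicate 1 or 2 (0.32 and 0.10) and without some single ID libraries. Of 12 tested receptors (14 listed), 5 rose and 2 fell, beside 15.9% and 14.9% of all genes. ITGA1, an integrin chain for collagen, rose by 0.66 ± 0.11 and ITGA2, another one, fell by 0.80 ± 0.09. Both passed in ID1, ID2 and ID3, with 0.60, 1.21 and 0.68 for ITGA1 and -1.01, -1.25 and -0.91 for ITGA2. In ID4 they gave 0.14 and -0.04 and did not pass (adjusted p = 0.58 and 0.84). The receptor count was 7 in a fit that called 30.8% of all genes, and 4 with library factors set within each chromosome. The share of all genes called with those factors is not reported here.

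**Figure D5:**
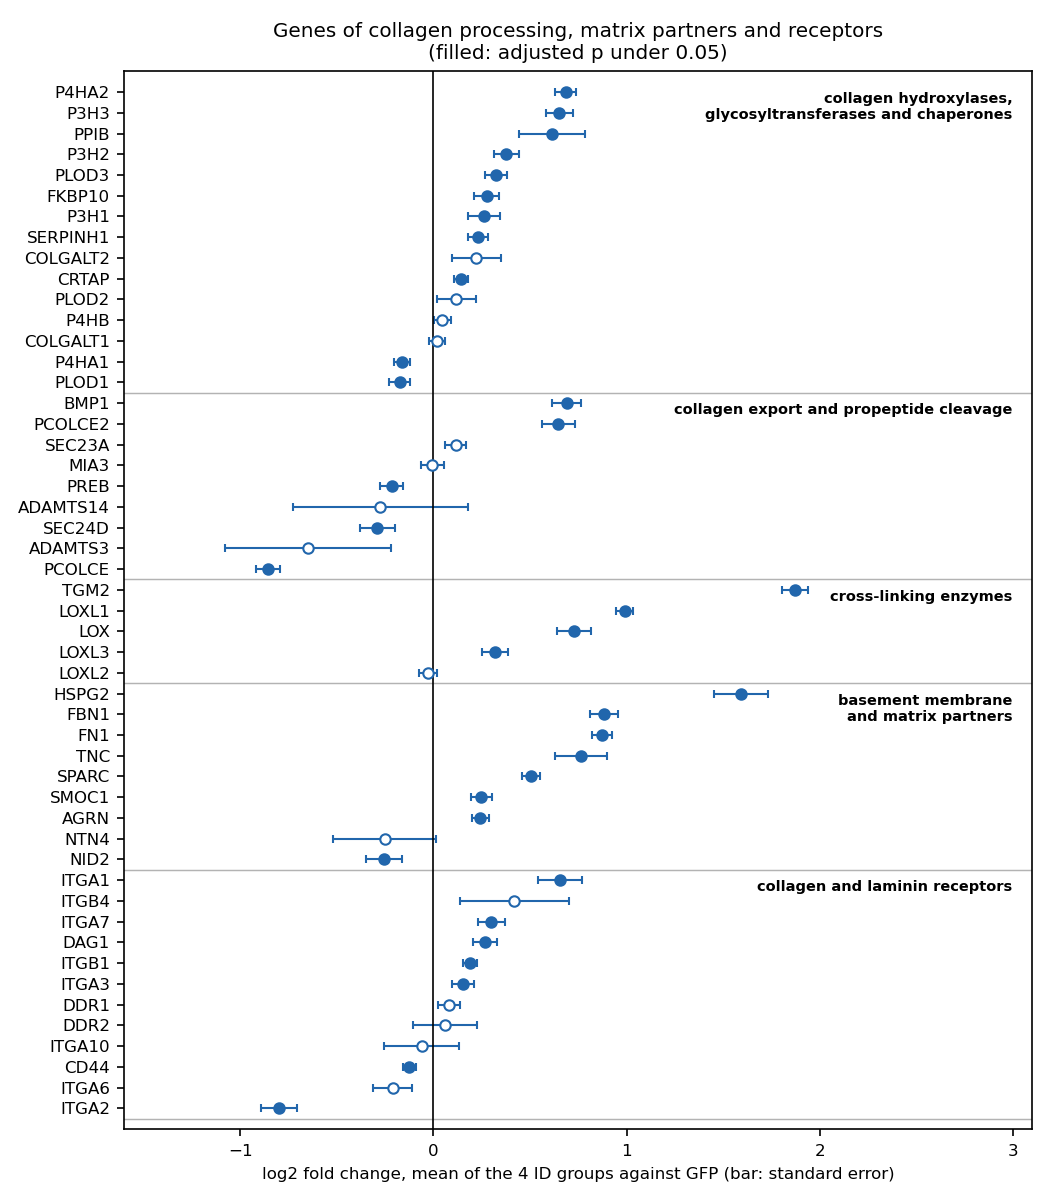
Points give the log2 fold change of the mean of the 4 ID groups against GFP for each tested gene of 5 lists (x axis; bars are standard errors), filled where the adjusted p was under 0.05. TGM2 (1.87) and HSPG2 (1.59) lie farthest to the right, and PCOLCE (-0.85) and ITGA2 (-0.80) farthest to the left of those filled.

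Some markers of fibroblasts and pericytes, cells that make fibrillar collagen, moved in the same libraries, though not all in every ID group. Of 6 tested markers (7 listed), 3 rose and 1 fell in the mean of the ID groups, beside 15.9% and 14.9% of all genes. These were PDGFRB (0.91 ± 0.08), DCN (1.12 ± 0.40) and LUM (0.70 ± 0.16) upward and PDGFRA (-1.20 ± 0.21) downward. PDGFRB rose in all ID groups. DCN and LUM rose in ID1, ID2 and ID3, but gave -0.15 and -0.10 in ID4 (adjusted p = 0.89 and 0.79). PDGFRA fell in ID2 (-2.11) and ID3 (-1.55) and did not pass in ID1 or ID4 (adjusted p = 0.087 and 0.20). The DCN call in the mean ended with DESeq2 (adjusted p = 0.053) and with library factors set within each chromosome (0.082). It also ended when any single GFP library was left out (0.060 to 0.15) and without some single ID libraries. Their summed level was 25.3 to 28.4 CPM in GFP, 41.0 to 41.2 in ID1, 37.9 to 43.4 in ID2, 49.5 to 51.6 in ID3 and 33.9 to 40.5 in ID4, and THY1 was listed at 0 in all groups other than ID4. Their part in the collagen results was not tested. All libraries came from the U87MG line, so these genes are not read as a sign of fibroblasts or pericytes. In bulk libraries, more cells with a transcript and more of it per cell cannot be told apart. Of 5 immune markers, CD68 (0.21 ± 0.06) and CSF1R (0.54 ± 0.15) were tested and rose, and PTPRC, CD14 and AIF1 did not reach the limit. Both calls ended without GFP replicate 3 (adjusted p = 0.073 and 0.058), and that of CSF1R also without GFP replicate 2 (0.090). Of 5 epithelial markers, EPCAM was tested and did not pass (adjusted p = 0.74). Of 8 glial and neural stem markers, OLIG2, NES and VIM were tested and VIM rose by 0.12 ± 0.04. The VIM call ended without GFP replicate 2 or 3 (adjusted p = 0.17 and 0.23) and without some single ID libraries (0.052 to 0.061).

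Some genes share exon sequence with a gene on the opposite strand, and the sources used here do not give the strand setting of the counting. COL18A1 overlaps with SLC19A1 (1197 bases, -0.05 ± 0.11 in the mean of the ID groups), LAMB1 with DLD (300 bases, 0.04 ± 0.05) and COL9A3 with TCFL5 (155 bases, 0.07 ± 0.07). Reads of the partners of each pair cannot be told apart if strand was not used.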

How the data were processed

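RNA of U87MG cells was sequenced by the company eBiogen with the Lexogen QuantSeq 3′ kit, and the submitters' notes name hg19 (GRCh37), Bowtie2 and BWA. The roles of these tools, the counting tool, its strand setting and the gene annotation are not given in the sources used here. The authors deposited raw counts per gene and library, and log2 values that the deposit labels as quantile normalized. Further details of that step are not given in the sources used here. Raw counts were analyzed with edgeR 4.0.16 in R 4.3.3. Genes with a mean of 5 or more counts (13665 of 25737 entries) were scaled by TMM (factors 0.978 to 1.021), which served for CPM as well. A quasi-likelihood fit held 1 mean per group over all 15 libraries, with Benjamini-Hochberg adjustment over all tested genes and a threshold of 0.05. Comparisons were each ID group against GFP, the mean of the 4 ID groups against GFP, a test of any difference among the ID groups, and all pairs of ID groups. The collagen and laminin genes, their classes and the other lists were chosen with earlier results of these data known. Of the 31 genes, 1 enters the counts but its own values are not reported here. Genes given with full statistics were the 10 with the highest CPM, the 3 largest rises and 3 largest falls among calls in each comparison with GFP, the 3 smallest p-values among the ID groups, and chain partners. Ratios of counts were compared by exact permutation tests. Floors cover counting error only. Alternatives were DESeq2 1.42.0, limma 3.58.1 on the deposited log2 values, filters on low counts, the label number as a block, library factors within chromosomes, fits of only 2 groups, and leaving out each library. For the lists of other genes these alternatives were added after seeing the data. Gene positions came from GENCODE v44lift37, matched by symbol for 22331 entries and by older symbol for 1413. The table lists 286 symbols more than 1 time, COL11A2 among them. The edgeR, DESeq2 and limma fits were run on simulated counts for ID1 against GFP, with the same spread setting for all genes and no outlying library. That setting is simpler than these data, and its outcome is not reported here.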

Additional observations from a re-analysis of the deposited data

How the results depend on the processing

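The 31 genes gave counts of calls within 1.5 times the reported ones under all alternatives run. The shares of all genes called in these alternative fits are not reported here, so moves of the counts are not read as a result. With 1 library of the groups compared left out, the counts ranged from 11 to 14 in ID1, 17 to 18 in ID2, 18 to 19 in ID3, 11 to 13 in ID4, 15 to 19 in the mean of the ID groups and 20 to 23 among the ID groups. For the other lists these ranges were 8 to 11 for hydroxylases and chaperones, 4 to 5 for export, 4 to 4 for cross-linking, 7 to 8 for partners and 6 to 7 for receptors. The receptor count fell from 7 to 4 with library factors set within chromosomes. For single genes, the calls in each ID group and all values in the mean of the ID groups were followed, with only libraries of the groups compared left out. Of these 1444 values under alternatives, 1374 stayed on the same side of 0 and of the threshold, 57 lost the call, 1 gained it (LAMA3 in the mean without ID4 replicate 2) and 12 changed sign. All 12 were log2 fold changes in the mean of the ID groups that had not passed. They were LAMB1 within chromosomes (-0.0038), and COL4A6 (0.0564) and COL9A3 (-0.0455) without GFP replicate 3. COL6A2 turned to 0.0008 with only genes of higher log2 value, 0.0019 with no filter, 0.0491 within chromosomes, and 0.0461, 0.008, 0.0055, 0.011, 0.0113 and 0.0031 with 1 library left out (range -0.0446 to 0.0461). With 1 library left out COL4A6 ranged from -0.4903 to 0.0564 and COL9A3 from -0.0455 to 0.3866. Values that had not passed in a single ID group were not followed, but the count in ID4 rose from 13 to 16 with only the 2 groups compared, 15 with limma, and 17 without ID2 replicate 3, which is outside that comparison. COL12A1 in ID4 passed with the replicate block (adjusted p = 0.016). The cause was not tested.

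The label number as a replicate block gave 13, 17, 19, 14, 17 and 22 calls in ID1, ID2, ID3, ID4, the mean of the ID groups and among the ID groups. The shares of all genes called with this block are not reported here either. LAMB1 in ID2 (adjusted p = 0.064) and LAMA1 and LAMA2 in the mean (0.056 and 0.051) lost their call with this block. Deviations of libraries with equal numbers correlated by -0.19 to 0.18 over 30 pairs, and the labels do not tie the numbers to a shared culture or day, so the numbers do not pair the libraries. A level of 3 counts or less in some libraries limits COL11A1 in ID2 and ID3, LAMA3 in the ID groups, and COL10A1 in ID1 and ID4.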
